A study of Caenorhabditis elegans with 2 samples.

Results

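Nuclear hormone receptor genes of the nematode *Caenorhabditis elegans* were examined for binding of LSY-2, a C2H2 zinc finger transcription factor that helps to make the left and right ASE taste neurons different. The family was taken as the protein-coding genes named nhr plus a number (269 genes) together with *daf-12*, *unc-55*, *fax-1*, *odr-7* and *sex-1*, which gave 274 of 19985 protein-coding genes. Binding had been mapped with ChIP-seq, the sequencing of DNA recovered by chromatin immunoprecipitation, in embryos of mixed stage and sex from strain OP367. This strain carries the *unc-119* allele tm4063 on chromosome III and the insertion wgIs367, a transgene for LSY-2 tagged with enhanced green fluorescent protein (eGFP). Whole embryos were used, so cell types were not resolved. The 2 replicates, which the labels call biological, formed 1 group, and the possible control that the labels name was not analysed here. The authors' optimal list after thresholding on the irreproducible discovery rate (IDR), a measure of agreement between replicates, held 2568 peaks on genome build ce11. A gene was called bound when the summit of such a peak lay between 1000 bp before and 300 bp after any annotated 5' end of a protein-coding transcript, here called the promoter window. By this definition 12 of the 274 genes were bound, or 4.38% (95% Wilson interval 2.52 to 7.5), against 2507 of the 19711 other protein-coding genes, or 12.7% (12.3 to 13.2), and 2519 of all 19985 protein-coding genes, or 12.6%.

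Nuclear hormone receptors are transcription factors with a zinc finger DNA-binding domain and a ligand-binding domain, and several are regulated by steroids, fatty acids or other small lipophilic molecules. Nematodes have an unusually large family, most of which descends from an ancestor related to the vertebrate receptor HNF4. A small set has clear relatives in insects and vertebrates and includes regulators of molting, developmental timing and neuron identity.

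The sequences under the only bound family genes of chromosome V, *nhr-47* and *nhr-142*, are shown because of what they had in common. Each is the 101 bp centred on the summit, read 5' to 3' on the strand of the receptor gene from ce11 (WBcel235), at chrV:5505205-5505305 on the plus strand and chrV:5791030-5791130 on the minus strand. Capitals mark every stretch of 8 bases that both windows held.
*nhr-47*: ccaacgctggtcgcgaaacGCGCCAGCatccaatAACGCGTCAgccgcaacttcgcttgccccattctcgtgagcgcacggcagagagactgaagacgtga
*nhr-142*: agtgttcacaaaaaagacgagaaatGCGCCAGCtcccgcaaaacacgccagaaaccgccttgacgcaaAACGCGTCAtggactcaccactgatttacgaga
Both windows held GCGCCAGC and, 3' of it on the same strand, AACGCGTCA. The *nhr-47* window reaches into its first exon. These words were found by comparing the pair of windows, so that both hold them is how they were chosen. Counted on both strands, GCGCCAGC lay in 75 of the 1828 IDR summit windows of promoters, or 4.10% (3.29 to 5.11), against 46 of 19984 windows of the same length placed 225 bp upstream of all protein-coding genes, or 0.230% (0.173 to 0.307). The overlapping 8-base words of the second stretch, AACGCGTC and ACGCGTCA, lay in 1.97% and 1.48% of the summit windows, against 0.135% and 0.110% of the upstream windows. The windows of the 12 bound receptor genes had a median of 49.5% G and C, all promoter summit windows 46.5% and the upstream windows 33.7%. The part of this difference in the motif counts was not tested.

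A run of alternating G and A, searched as GAGAGA on both strands, lay in 7 of the 12 summit windows of bound receptor genes, or 58.3% (32.0 to 80.7). It lay in 365 of the 1828 promoter summit windows (interval 18.2% to 21.9%) and in 6.91% of the upstream windows. The *nhr-47* window above holds it once, near its 3' end, and the window of *nhr-49*, not shown, holds it too. The following 5 windows are shown with every match in capitals, as TCTCTC where it is on the other strand, on the strand of the receptor gene, at chrX:17513694-17513794, chrX:15707645-15707745, chrIV:11169589-11169689, chrIV:9667253-9667353 and chrX:2598991-2599091. The window of *nhr-34* is read on the minus strand and the others on the plus strand, and that of *nhr-40* holds 2 matches.
*nhr-1*: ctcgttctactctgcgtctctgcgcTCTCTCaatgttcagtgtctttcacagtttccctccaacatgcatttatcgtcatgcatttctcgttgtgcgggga
*nhr-48*: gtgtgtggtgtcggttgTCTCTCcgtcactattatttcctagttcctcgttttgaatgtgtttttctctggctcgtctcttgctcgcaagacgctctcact
*nhr-67*: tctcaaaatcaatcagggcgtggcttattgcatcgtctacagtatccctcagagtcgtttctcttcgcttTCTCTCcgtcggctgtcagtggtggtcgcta
*nhr-34*: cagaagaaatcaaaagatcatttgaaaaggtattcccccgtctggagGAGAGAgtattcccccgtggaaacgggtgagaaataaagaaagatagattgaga
*nhr-40*: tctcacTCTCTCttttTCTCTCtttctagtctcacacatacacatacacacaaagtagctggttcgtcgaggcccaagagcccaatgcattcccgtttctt
The nuclear receptor half-site AGGTCA lay in none of the 12 windows (upper limit of the interval 24.2%) and in 31 of the 1828 promoter summit windows, against 2.73% of the upstream windows. TTTCAG, the end of the usual trans-splice acceptor, also lay in none of the 12, against 6.67% of promoter summit windows and 17.4% of the upstream windows. These are matches of letters within 50 bp of a summit. No summit of the 12 lay in soft-masked sequence, and 565 of all 2568 IDR summits did, in promoters or not. The upper limit for 0 of 12, 24.2%, lies above that share.

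Among the bound receptor genes with a known metabolic role, *nhr-49* had the strongest peak of the family. NHR-49 is an HNF4-related regulator of fatty acid metabolism and of the response to fasting. Its peak, at chrI:9869135-9869514, ranked 664 of 2568 by column 7, the authors' signal value, with a signal of 87.5, and the summit lay at -326 bp from the nearest of its 6 annotated 5' ends. The overlapping peak ranked 954 in the list of replicate 1 and 587 in that of replicate 2, with signals of 36.3 and 48.6. Signal scales are set within a list, so ranks and not signals are compared between lists.

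The next peaks were those of *nhr-47* and *nhr-142*, at chrV:5505174-5505312 and chrV:5791014-5791119, with ranks of 716 and 720 and signals of 82.1 and 81.9. Both were narrow, 139 and 106 bp long, whereas the other 10 had the fixed length of 380 bp. Of all 2568 IDR peaks 1753 had that length, so other lengths were common. The *nhr-47* summit lay in its first exon at 2 bp from the 5' end, and it was also 398 bp upstream of the divergently transcribed *dnj-19*, a J-domain chaperone gene. The *nhr-142* summit lay at -527 bp and was nearer, at -150 bp, to the divergent gene F44E7.9. The *nhr-47* peak ranked 550 in replicate 1 and 837 in replicate 2, with signals of 51.6 and 38.3. The *nhr-142* peak ranked 1279 in replicate 1 and 506 in replicate 2, with signals of 30.1 and 53.7. The replicates thus put this pair of genes in opposite orders.

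Of the receptor genes that act in molting and epidermal or neural development, *nhr-25*, *nhr-67* and *nhr-23* were bound. A list for molting and timing had 3 of 6 bound (50%, 18.8 to 81.2), against 12.6% of all protein-coding genes. Its *daf-12*, *nhr-85* and *nhr-41* were not bound. All 6 lie outside V, where the share of all genes was 14.4%. The list was chosen with earlier results of these data known. Its 3 bound genes are also in the list below of receptors with a clear relative in insects or vertebrates. Whether role went with binding was not tested. A list for neuron identity, which shares *nhr-67*, had 1 of 4 bound (25%, 4.56 to 69.9), an interval that holds the share of all genes. Its *fax-1*, *unc-55* and *odr-7* were not bound. NHR-25 is related to fly FTZ-F1 and vertebrate SF-1 and acts in the epidermis and in molting. Its peak, at chrX:13008415-13008794, ranked 996 with a signal of 67.7. The summit lay in an intron, at 112 bp from the outermost 5' end and at -281 and -661 bp from the other 5' ends. NHR-67, a relative of the fly gene product Tailless, acts in neurons and in the uterine anchor cell, and the peak of its gene, at chrIV:11169449-11169828, ranked 1721 with a signal of 46.1 and a summit at -109 bp. NHR-23, a relative of fly DHR3 and the vertebrate ROR receptors, is required for molting. The peak of *nhr-23* was the weakest of the 12. It lay at chrI:7218071-7218450, ranked 2484 with a signal of 34.4, and its summit was at -525 bp from an internal 5' end, within an intron of longer transcripts. In replicates 1 and 2 the peak of *nhr-25* ranked 1787 and 622, with signals of 24.1 and 46.5. That of *nhr-67* ranked 2014 and 1848, with signals of 22.3 and 22.5, and so was alike in both. That of *nhr-23* ranked 2168 and 3830, with signals of 21.0 and 13.1.

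The X chromosome held 6 of the 12 bound genes, among them *nhr-25* and the genes *nhr-48* and *nhr-40*. NHR-48 is related to DAF-12, the steroid receptor of the dauer decision, and NHR-40 acts in embryonic and early larval development. The *nhr-48* peak, at chrX:15707505-15707884, ranked 1537 with a signal of 50.2 and a summit at -518 bp, and it ranked 1068 and 1824 in replicates 1 and 2. The *nhr-40* peak, at chrX:2598851-2599230, ranked 2386 with a signal of 35.5, and 1808 and 4293 in replicates 1 and 2. Its summit lay in an intron, at -367 bp from an internal 5' end.

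The remaining bound genes were *nhr-255*, *nhr-1* and *nhr-3* on X and *nhr-34* on chromosome IV. The *nhr-255* peak, at chrX:15741827-15742206, ranked 1255 with a signal of 57.5 and a summit at -593 bp, and 1428 and 1173 in replicates 1 and 2. The *nhr-1* peak, at chrX:17513554-17513933, ranked 1534 with a signal of 50.3 and a summit at -319 bp, and 1379 and 2389 in replicates 1 and 2. The *nhr-3* peak, at chrX:14557382-14557761, ranked 1895 with a signal of 42.8, and 2151 and 2379 in replicates 1 and 2. At -932 bp its summit was the farthest upstream of the 12. The *nhr-34* peak, at chrIV:9667113-9667492, ranked 1884 with a signal of 43.0, and 2244 and 2005 in replicates 1 and 2. Its summit was in an intron, at -222 bp from an internal 5' end. On X the summits of *nhr-48* and *nhr-255* were 34322 bp apart, and the next smallest distance between neighbouring summits was 1150123 bp.

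All 12 overlapped one of the 2568 peaks of highest signal in replicate 1, and 10 did so in replicate 2, where *nhr-40* and *nhr-23* ranked 4293 and 3830. Both conditions held for 10 of 12, and for 851 of the 1230 promoter IDR peaks ranked from 664 to 2484 (69.2%). Neither replicate was the stronger throughout, and replicate 1 gave the better rank at 6 of the 12. The summit in a replicate lay at most 123 bp from that in the IDR list.

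**Figure D1:**
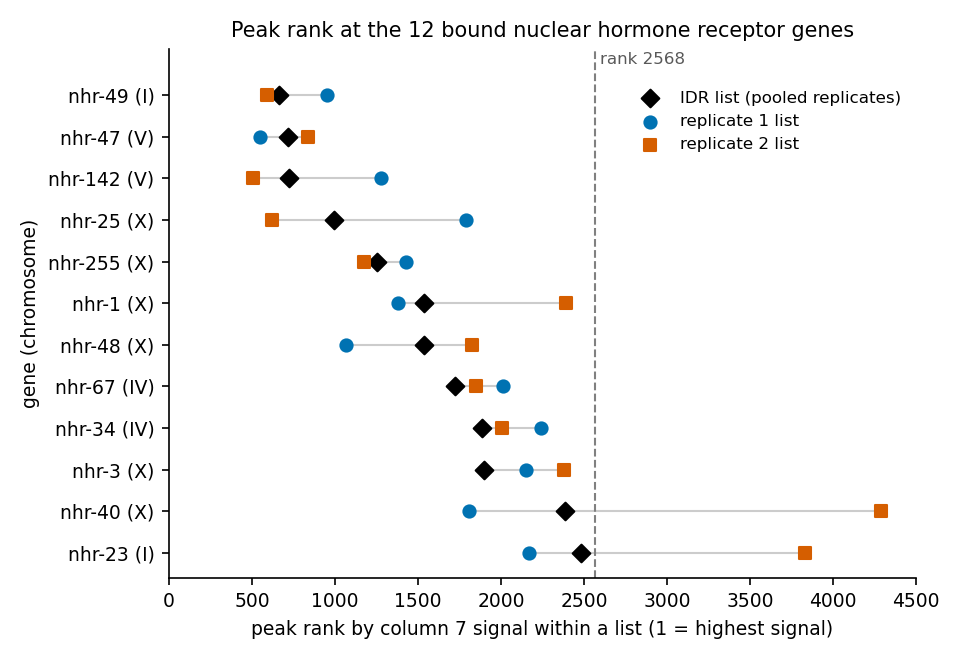
Rank of the peak at each bound receptor gene within the IDR list (black diamonds), the replicate 1 list (blue circles) and the replicate 2 list (orange squares), where 1 is the highest column 7 signal; the chromosome stands after the name. The dashed line is rank 2568, which only the replicate 2 ranks of *nhr-40* (4293) and *nhr-23* (3830) pass.

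The family's peaks began below the strongest of the genome. Ranks 1 to 642 held 0 of the 12 bound receptor genes, against 809 of all 2519 bound genes (32.1%). Ranks 643 to 1284 and 1285 to 1926 held 5 receptor genes each, and ranks 1927 to 2568 held 2. The median rank was 1535.5 for bound receptor genes and 1053 for all bound genes. On X, which held 6 of the 12, the medians were closer, at 1535.5 for bound receptor genes and 1419 for the 173 other bound genes. On V the receptor genes ranked 716 and 720, against a median of 1202.5 for other bound genes.

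The median summit position was -346.5 bp from the nearest 5' end, against -225 bp for all bound genes, and 10 of the 12 lay upstream. Of the 12 best peaks, 2 also lay in the window of another gene (16.7%), both on chromosome V. Of the 2507 other bound genes 1488 had a peak that was so shared (59.4%). This share was lower on X, which held 6 of the 12, at 43 of 173 other bound genes (24.9%). The median distance from the outermost 5' end to the next gene upstream was 3488 bp for bound receptor genes, against 1575 bp for the 262 unbound ones and 555 bp for other bound genes. Of the 262 unbound ones 165 lay on V, and of the 12 bound ones 2. Outside V the medians were 4740 bp for bound and 3491 bp for unbound receptor genes. On V the order was the reverse. The gap there was 395 bp at *nhr-47* and 676 bp at *nhr-142*, against a median of 1092 bp for unbound receptor genes. Bound receptor genes were also longer than unbound ones, with medians of 5258 and 2278.5 bp, and had a median of 2 against 1 annotated 5' ends. Of the 97 receptor genes with several 5' ends 8 were bound (8.25%, 4.24 to 15.4), and of the 177 with a single one 4 (2.26%, 0.882 to 5.67), with intervals that overlapped. Other genes had the same order, at 18% with several 5' ends and 10.9% with a single one.

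**Figure D2:**
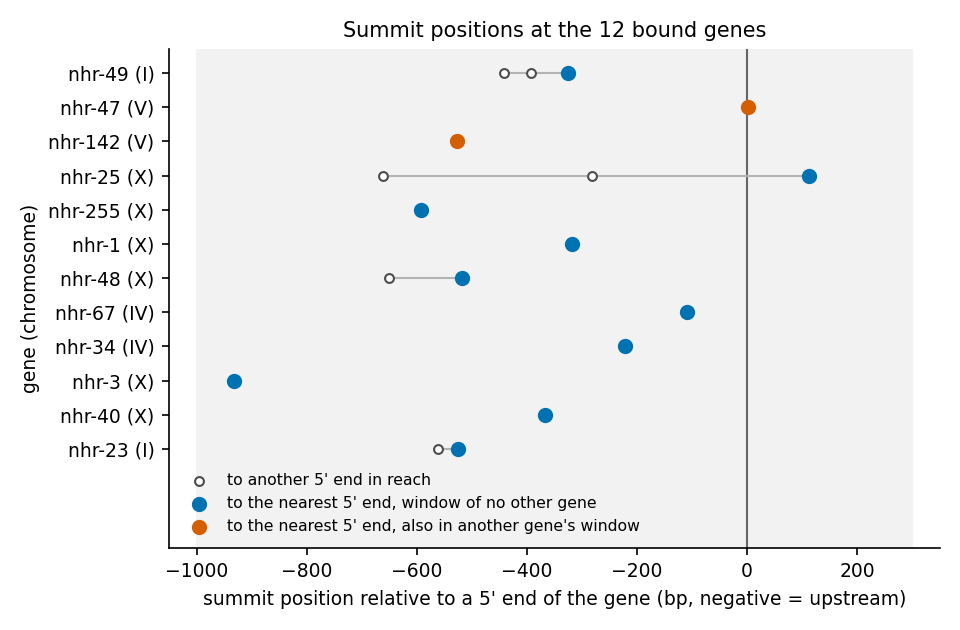
Position of the IDR summit at each bound receptor gene relative to its nearest 5' end (filled circles) and to other 5' ends of the gene within reach (open circles), in bp; the shaded area is the promoter window. Orange circles are the summits of *nhr-47* and *nhr-142*, which also lie in the window of another gene, and all summits but those of *nhr-47* (2 bp) and *nhr-25* (112 bp) lie upstream.

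The comparison between chromosomes asked whether the family's position in the genome went with its binding. Chromosome V carried 167 of the 274 receptor genes (60.9%), and 2 of these were bound, or 1.20% (0.329 to 4.26). On the other chromosomes 10 of 107 were bound, or 9.35% (5.16 to 16.4). All protein-coding genes had the same order, with 7.01% on V and 14.4% on the other nuclear chromosomes. Against non-receptor genes of the same chromosome, receptor genes of V had a lower share (1.20% against 7.21%, 6.51 to 7.97), with intervals that did not overlap. On the other chromosomes the intervals overlapped, at 9.35% for receptor genes and 14.4% (13.9 to 15.0) for other genes. The intervals cover the counting of genes only, and genes are not replicates.

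The X chromosome is given apart from chromosomes I to IV. On X, 6 of 27 receptor genes were bound, or 22.2% (10.6 to 40.8), against 173 of 2704 other X genes, or 6.4% (5.54 to 7.38). On chromosomes I to IV together 4 of 80 were bound, or 5.0% (1.96 to 12.2), against 1975 of 12168 other genes, or 16.2% (15.6 to 16.9). The receptor share was therefore above that of other genes on X and below it on V and on I to IV, in each case with intervals that did not overlap. By chromosome, I had 2 of 24 bound, II 0 of 15, III 0 of 8 and IV 2 of 33. Had receptor genes been bound at the share of all genes of their own chromosome, 11.7 on V, 1.77 on X and 12.5 on I to IV would have had a summit, or 26.0 in all, where 2, 6 and 4 did, or 12 in all. Leaving out X, chromosomes V and I to IV had shares of 1.20% and 5.0%, whose intervals overlapped. The X count was 2 in the 1284 IDR peaks of highest signal and 3 with a window from 500 bp before to 100 bp after a 5' end, where the V counts were 2 and 1.

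**Figure D3:**
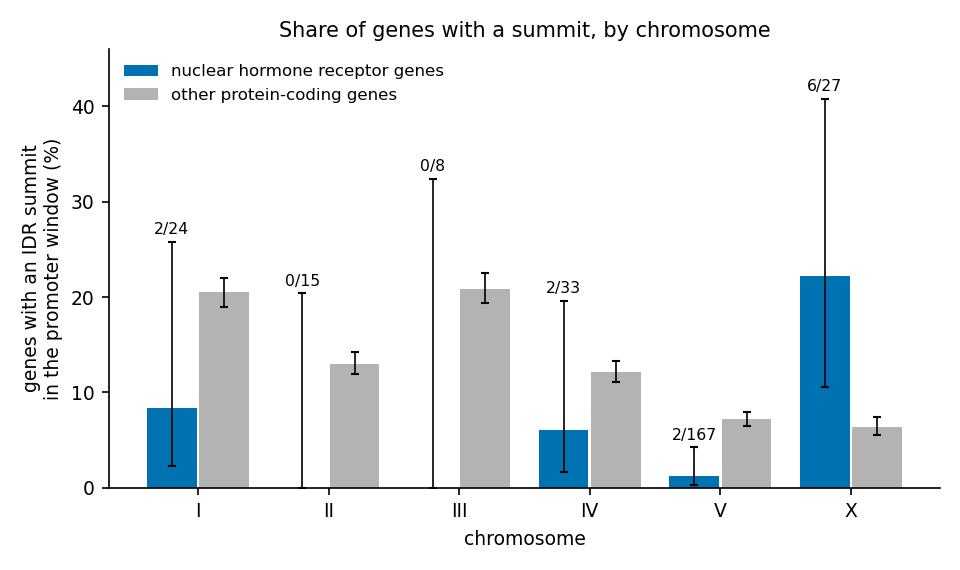
Percent of receptor genes (blue, with the number bound of the number present) and of other protein-coding genes (grey) with an IDR summit in the promoter window, by chromosome; bars start at 0 and lines are 95% Wilson intervals. Receptor genes stand above other genes on X (22.2% against 6.4%) and below them on V (1.20% against 7.21%).

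Receptor genes on X also had larger upstream gaps than other X genes, with medians of 5728 and 2102.5 bp. Among X genes with a gap of at least 2000 bp, 5 of 21 receptor genes were bound (23.8%, 10.6 to 45.1), against 77 of 1394 other genes (5.52%, 4.44 to 6.85). On V, where 50 receptor genes had such a gap, none of these was bound (upper limit 7.13%), against 3.72% of other genes. On I to IV the shares at that gap were 3 of 49 (6.12%) and 7.89%, with overlapping intervals. The threshold of 2000 bp was chosen after values were seen. Of the 6 bound X genes 1 lay in the central 50% of the chromosome by length, where 17 of all 27 X receptor genes lay. Of the bound other X genes 79 of 173 lay there (45.7%), and of all other X genes 1429 of 2704 (52.8%).

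Place along chromosome V was examined next. The central 50% of V by length held 56 receptor genes and both bound ones, or 3.57% (0.985 to 12.1), against 9.70% of other genes there. The outer parts held 111 receptor genes, none of them bound (upper limit 3.35%), against 99 of 2259 other genes, or 4.38% (3.61 to 5.31). On the other chromosomes 5 of 57 central receptor genes were bound (8.77%, 3.81 to 18.9), against 15.4% of other genes there. In their outer parts 5 of 50 were bound (interval 4.35% to 21.4%), against 13.2% of other genes, so both receptor intervals held the share of other genes.

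Receptor genes often stood beside one another. Ordered by start position and on either strand, the gene before or after was also a receptor gene for 107 of the 167 on V (64.1%) and for 30 of the 107 elsewhere (28.0%), and 0 of these 137 were bound. The upper limits were 3.47% on V and 11.4% elsewhere. Other genes beside a receptor gene had shares of 3.47% (1.6 to 7.36) on V and 9.30% (5.81 to 14.6) elsewhere, with intervals that overlapped those of the receptor genes. The count was also 0 when genes nested in another were passed over (139 genes) and when only neighbours on the same strand counted (105 genes), alternatives chosen after seeing the data. Among receptor genes without a family neighbour, 2 of 60 on V (3.33%, 0.919 to 11.4) and 10 of 77 elsewhere (13%, 7.21 to 22.3) were bound, against 7.35% and 14.5% of other genes without such a neighbour. The interval of each of these receptor shares held the share of the other genes.

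**Figure D4:**
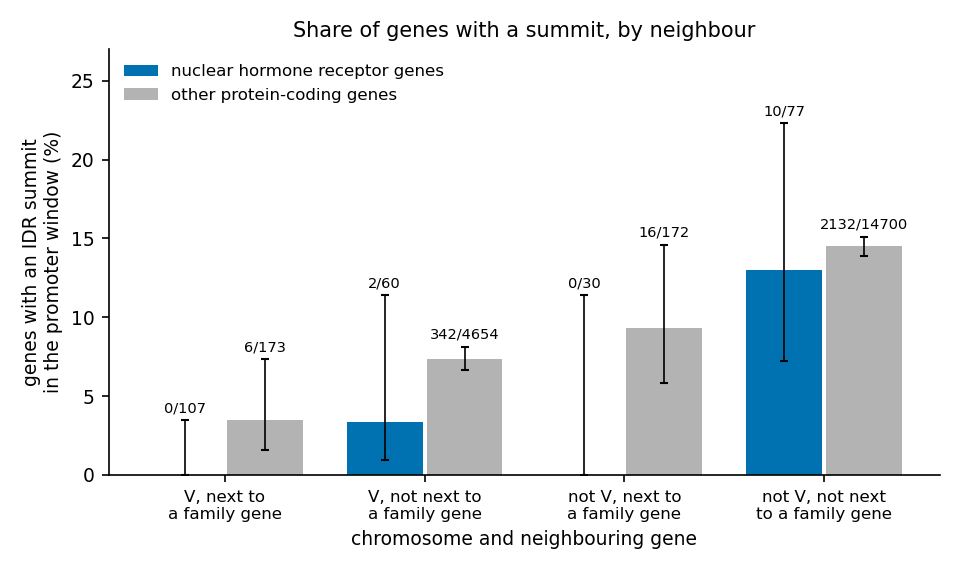
Percent of receptor genes (blue) and other protein-coding genes (grey) with an IDR summit in the promoter window, on V and on the other nuclear chromosomes, by whether an adjacent protein-coding gene is a receptor gene; numbers are bound of present and lines are 95% Wilson intervals. No receptor gene beside another is bound (0 of 107 and 0 of 30), and 2 of 60 and 10 of 77 of the others are.

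By role, a chosen list of 13 receptors with a clear relative in insects or vertebrates had 4 bound genes, or 30.8% (12.7 to 57.6). These were *nhr-25*, *nhr-48*, *nhr-67* and *nhr-23*. The interval holds the 14.4% of all protein-coding genes outside V. The list is not a full set of such receptors, and HNF4-related ones such as NHR-49 are outside it. The 261 receptor genes outside the list had 8 bound, or 3.07% (1.56 to 5.93). None of the 13 is on V, and among the 94 remaining receptor genes outside V 6 were bound, or 6.38% (2.96 to 13.2), an interval that overlaps that of the 13. The 13 also had longer genes (median 5472 bp against 2270 bp for the 261) and a median of 2 against 1 annotated 5' ends, so these features and conservation cannot be told apart here.

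Other well-known receptor genes of this list had no IDR summit in the window. Within the window *nhr-41*, related to fly DHR78, had the best pooled-list summit of these, of rank 4546. The genes of the neuronal receptor FAX-1 and of SEX-1, an X-linked signal of chromosome number in sex determination, had pooled-list summits there of rank 20693 and 29621. For *daf-12*, *nhr-8*, which acts in sterol metabolism and toxin resistance, *nhr-85*, *nhr-6*, *nhr-91* and *unc-55*, a regulator of motor neuron synaptic pattern, the pooled list had none in the window. The AWA olfactory neuron regulator gene *odr-7* had none in the pooled list or in either replicate list.

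Of 8 receptors known for lipid, diet or vitamin metabolism, *nhr-49* alone was bound, or 12.5% (2.24 to 47.1), a share at the 12.6% of all protein-coding genes. *nhr-80*, which acts with NHR-49 in fatty acid desaturation, had a pooled-list summit of rank 4456 at -109 bp, and *nhr-68*, a regulator of propionate breakdown, had one of rank 3552 at -289 bp. The best summit in the *nhr-68* windows ranked 3249 in replicate 1 and 21747 in replicate 2, so the replicates differed widely there. These need not be the same peak. *nhr-66*, *nhr-62*, *nhr-13* and *nhr-114* had pooled ranks from 7683 to 15750, and *nhr-10* had no pooled-list summit in the window. Of 5 receptors of toxin, hypoxia, iron or pathogen responses, *nhr-8*, *nhr-57*, *nhr-86*, *nhr-176* and *nhr-14*, none was bound. The upper limit for 0 of 5 is 43.4%, far above the share of all genes. The best pooled rank in a promoter window among them was 5375, at *nhr-86*. Upstream of the window *nhr-8* and *nhr-14* had IDR summits of ranks 883 and 2015.

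An IDR summit near the gene but outside the window (within 2000 bp upstream of a 5' end or in the gene body) was found at 8 further receptor genes, or 2.92% (1.49 to 5.65) of the 274, against 5.1% of all protein-coding genes. On V there were 0 of 167 (upper limit 2.25%), against 2.84% (2.41 to 3.35) of other genes. Elsewhere there were 8 of 107 (7.48%, 3.84 to 14.1), against 5.82% of other genes, within the receptor interval. In an intron, *sex-1* had a summit of rank 719, 949 bp downstream of the 5' end, and *nhr-19*, *nhr-46* and *nhr-17* had summits of ranks 1684, 1751 and 2549. Between 1000 and 2000 bp upstream, *nhr-8* had a summit of rank 883 at -1073 bp, which lay in the windows of *emc-6*, *mrpl-1* and *mrps-24*, and *nhr-280* had one of rank 1690 in the window of *pals-22*. The summits upstream of *nhr-10* and *nhr-14*, at -1453 and -1398 bp with ranks 1936 and 2015, lay in the window of no gene. The median distance from a receptor gene's 5' end to the nearest IDR summit was 77024 bp on V and 16881 bp elsewhere, against 28313 and 12325.5 bp for other genes.

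Weaker summits were common in the family. The pooled list of 30000, which per the deposited metadata holds peaks and background, had a summit in the window of 107 of the 274 receptor genes (39.1%, 33.5 to 44.9), against 40.3% of all protein-coding genes. On V the share was 61 of 167 (36.5%, 29.6 to 44.1), against 26.5% (25.2 to 27.7) of other V genes, the opposite order to that of the IDR summits. This order held in the outer parts of V, where 52 of 111 receptor genes (46.8%, 37.8 to 56.1) and 25.5% (23.7 to 27.3) of other genes had a summit of the long list. It did not hold in the central 50%, where the shares were 9 of 56 (16.1%, 8.69 to 27.8) and 27.3% (25.6 to 29.1), with intervals that overlapped. Elsewhere the shares were 43.0% and 44.8%. The share also differed by the number of annotated 5' ends, each of which adds a window. On V it was 26 of 112 for receptor genes with a single 5' end (23.2%, 16.4 to 31.8). For those with several it was 35 of 55 (63.6%, 50.4 to 75.1). A single 5' end was annotated for 67.1% of V receptor genes and 77.6% of other V genes. The part of this in the order on V was not tested. Among V genes without an IDR summit in the window, 59 of 165 receptor genes (35.8%, 28.8 to 43.3) and 929 of 4479 other genes (20.7%, 19.6 to 22) had one in the long list. Summits in the long lists of both replicates were found at 28 receptor genes of V (16.8%, 11.9 to 23.2) and at 19.2% of other V genes, with intervals that overlapped. A summit of the long list is not a call of binding.

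**Figure D5:**
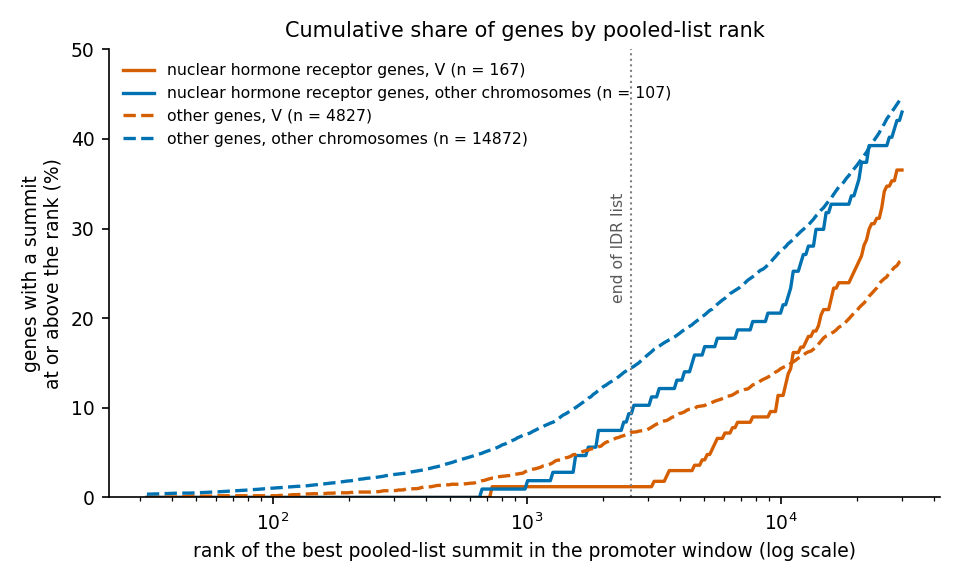
Cumulative percent of genes whose best pooled-list summit in the promoter window has at most the rank on the horizontal log axis, for receptor genes (solid) and other genes (dashed) on V (orange) and on the other nuclear chromosomes (blue). At the end of the IDR list (dotted line) receptor genes of V reach 1.20% and other V genes 7.21%, and at rank 30000 they reach 36.5% and 26.5%.

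At the edge of the IDR list, the members just inside were *nhr-40* and *nhr-23*, with signals of 35.5 and 34.4, and the members just outside were *nhr-122* and *nhr-119*, with pooled ranks of 2588 and 3074 and signals of 33.1 and 28.7. The next were *nhr-256*, *nhr-32*, *nhr-68*, *nhr-228*, *nhr-104*, *nhr-64*, *nhr-80* and *nhr-133*, with ranks from 3111 to 4488. Of these 10 genes 4 lie on V, namely *nhr-256*, *nhr-68*, *nhr-228* and *nhr-133*. By the best summit in the window in each replicate list, *nhr-122* ranked 6354 in replicate 1 and 2009 in replicate 2. By the same measure *nhr-32* ranked 1830 in replicate 1 and 11994 in replicate 2.

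Homeobox genes named ceh plus a number, another family of transcription factor genes, had 8 of 63 bound, or 12.7% (6.58 to 23.1), a share near that of all genes. The interval of the receptor share of 4.38% (2.52 to 7.5) overlapped this one. On V, 0 of 12 of these homeobox genes were bound (upper limit 24.2%), and elsewhere 8 of 51 (15.7%, 8.17 to 28). This was the same order as for receptor genes, with intervals that overlapped. On X, 1 of 18 of these homeobox genes was bound (5.56%, 0.988 to 25.8), an interval that also overlapped that of the X receptor share of 22.2% (10.6 to 40.8). No control library was used here, so signal that any immunoprecipitation would give at a promoter was not tested, and the 5' ends of many worm transcripts are trans-splice sites that lie downstream of the start of transcription.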

How the data were processed

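ChIP-seq peaks of eGFP-tagged LSY-2 in 2 biological replicates of 1 group were used as deposited on ce11: the optimal IDR list and 3 long lists of 30000 peaks (pooled and for each replicate), which per the deposited metadata hold peaks and background. The authors' signal value (column 7) is scaled within a list, and the deposited column 10 gives the summit offset in bp. The 2568 IDR peaks kept their pooled-list ranks. The IDR threshold, aligner and peak caller were not given in the sources used here. Read depth is unknown, and the intervals take no account of it. The ce10 lists were not used.

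Genes and 5' ends of protein-coding transcripts came from Ensembl release 115 (WBcel235), bases from RefSeq. Shares carry 95% Wilson intervals, and no test was run, since genes are not replicates and there is 1 group. The genes named were all bound family genes, the role lists, the 10 next by pooled rank, those with a nearby summit and genes sharing a summit. Members and lists were chosen with earlier results of these data known. Summit assignment was checked on planted summits. Alternatives covered the peak list, summit, window, 5' end and repeats. Noncoding ends, the gap strata, the shared words and the leaving out of X were chosen after seeing the data. Tools were pandas 2.3.3, matplotlib 3.10.9, scipy 1.17.1 and numpy 2.4.6 under Python 3.11.15.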

Additional observations from a re-analysis of the deposited data

How the results depend on the processing

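With the 1284 IDR peaks of highest signal, 5 receptor genes were bound (2 on V and 3 elsewhere) of 1468 genes in all. With all pooled peaks 107 receptor genes (61 on V and 46 elsewhere) of 8053 genes had a summit. With a window from 500 bp before to 100 bp after a 5' end, 7 were bound, 1 on V and 6 elsewhere, and *nhr-142*, *nhr-23*, *nhr-255*, *nhr-3* and *nhr-48* were lost. Without X, 4 receptor genes outside V were bound, an alternative chosen after seeing the data. With only 1 replicate, from 11 to 13 receptor genes were bound (2 on V, and from 9 to 11 elsewhere) of 2443 to 2482 in all: *nhr-23* and *nhr-40* were lost and *nhr-122* gained without replicate 1, and *nhr-32* gained without replicate 2. With the outermost 5' end alone, 9 were bound, without *nhr-23*, *nhr-34* and *nhr-40*. The other alternatives gave 12 to 16, with *nhr-8*, *nhr-280*, *nhr-10* and *nhr-14* gained in the widest window. *nhr-8* and *nhr-280* were also gained when any overlap of a peak with the reported window was counted, which gave 14. *nhr-49*, *nhr-47* and *nhr-25* were bound under all 11 alternatives of peak list, position, window, 5' end and repeats. The cause of these shifts was not tested.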

Other observations

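Genes outside the family that stood beside a receptor gene had the following shares of IDR summits. On V, 6 of 173 such genes were bound (3.47%, 1.6 to 7.36), against 342 of 4654 without a receptor neighbour (7.35%, 6.63 to 8.13). On the other nuclear chromosomes 16 of 172 were bound (9.30%, 5.81 to 14.6), against 2132 of 14700 (14.5%, 13.9 to 15.1). The intervals overlapped in both comparisons. With genes nested in another passed over, an alternative chosen after seeing the data, the shares were 4 of 172 (2.33%, 0.908 to 5.83) against 7.39% (6.67 to 8.18) on V and 16 of 186 (8.6%, 5.36 to 13.5) against 14.5% (14 to 15.1) elsewhere, with intervals that did not overlap. With only neighbours on the same strand counted, also chosen after seeing the data, the intervals overlapped. The shares were then 2 of 83 (2.41%, 0.663 to 8.37) against 7.29% (6.59 to 8.07) on V. Elsewhere they were 10 of 84 (11.9%, 6.6 to 20.5) against 14.5% (13.9 to 15). No test was run.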
